A study of Mus musculus with 69 samples.

Results

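Growth hormone and 8 other genes that mark or regulate the somatotrope, the growth hormone-producing cell of the anterior pituitary, were followed across 69 RNA-seq libraries of female C57BL/6J mice. The 9 genes, taken by symbol from 55964 gene IDs, were Gh, the receptors Ghrhr and Ghsr, the somatostatin receptors Sstr1, Sstr2, Sstr3 and Sstr5, and the transcription factors Pou1f1 and Neurod4. The mice were WT, heterozygous (Zeb1_200H) or homozygous (Zeb1_200M) for a Zeb1 allele whose 3′ UTR sites for the miR-200a and miR-200b families had been mutated, so that ZEB1, a transcriptional repressor, was released from these microRNAs. The allele was made in embryonic stem cells, mice descended from 2 of the clones (6B6 and 3C5) entered the study, and the labels do not say which clone each library came from. A young cohort comprised virgin females of 8 to 12 weeks, and an older cohort comprised females of 28 to 36 weeks sampled after a trial of breeding. All were staged at proestrus. Pituitary, hypothalamus and ovary were sequenced in 4 libraries per genotype and cohort, except 3 in young WT pituitary, older Zeb1_200M pituitary and older Zeb1_200M hypothalamus. Replicates of a tissue were different mice according to the methods. In the young cohort WT and Zeb1_200M mice were fewer than libraries, and in the older cohort WT and Zeb1_200H mice were. Some tissues in both cohorts therefore came from the same mouse, and the labels do not say which. The tests between tissues took all libraries as independent.

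Growth hormone is released under the control of the hypothalamus: growth hormone-releasing hormone acts on GHRHR to drive synthesis and secretion, somatostatin acts on the SSTR receptors to restrain it, and ghrelin acts on GHSR to amplify the pulses. The POU-domain factor POU1F1 directs the lineage that yields somatotropes, lactotropes and thyrotropes, and activates Gh, Prl, Tshb and Ghrhr. NEUROD4 is a basic helix-loop-helix factor required for normal expansion and function of this lineage, and circulating growth hormone signals through GHR, JAK2 and STAT5 to induce Igf1 and the SOCS and CISH feedback inhibitors.

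The microRNAs of the perturbed axis are shown together with their matches in the 9 genes, since a match would place a gene in reach of the same families. The seeds, bases 2 to 8 of the microRNA and the part that pairs with a target, are in capitals in the RefSeq mature sequences of one member of each family, both encoded on the minus strand of GRCm38.p6 (miR-200a-3p at chr4:156054911-156054932, miR-200b-3p at chr4:156055685-156055706).
mmu-miR-200a-3p: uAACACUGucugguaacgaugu
mmu-miR-200b-3p: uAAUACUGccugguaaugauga
Among the 3′ UTRs of the 9 genes, Neurod4 and Sstr3 each held the 7-base reverse complement of the miR-200a family seed (CAGTGTT), as did 3797 of the 21045 genes with an annotated 3′ UTR. None of the 9 held the miR-200b family match (CAGTATT), which 13.9% of these genes hold. Both matches are shown 5′ to 3′ on the gene's strand, the minus strand, with the seed match in capitals and 10 bases on either side. A match is a description of the sequence and not a measured site. The Neurod4 match lies at chr10:130270079-130270085 and the Sstr3 match at chr15:78538191-78538197.
Neurod4: tttccatttcCAGTGTTtttattgctt
Sstr3: agctcagttgCAGTGTTgatggcttca

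Of the 9 genes, 5 had RefSeq promoter entries (8 promoters, 250 bases before to 50 after a start). The last 100 bases before the start are shown on the plus strand for Ghsr (chr3:27371251-27371350), Sstr2 (chr11:113619227-113619326) and Pou1f1 (chr16:65520412-65520511). They were picked among the genes that differed between genotypes in the pituitary. Neurod4 differed too and had promoter entries, which are not shown. Capitals mark matches to 7 motifs searched on both strands.
Ghsr: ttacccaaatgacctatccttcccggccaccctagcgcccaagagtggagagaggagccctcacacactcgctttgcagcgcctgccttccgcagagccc
Sstr2: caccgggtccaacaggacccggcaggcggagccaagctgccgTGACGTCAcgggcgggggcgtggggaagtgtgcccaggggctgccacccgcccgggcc
Pou1f1: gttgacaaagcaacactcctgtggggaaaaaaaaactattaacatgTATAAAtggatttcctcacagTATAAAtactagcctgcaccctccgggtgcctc
The Sstr2 promoter held the palindromic cyclic AMP response element TGACGTCA, present in 1.79% of 32851 promoters, at bases -58 to -51 from the start. Pou1f1 held TATAAA, present in 13.6% of promoters, at -54 to -49 and at -33 to -28. The E-box letters bound by ZEB1, CAGGTG (20.2% of promoters) and CAGGTA (12.0%), were each found in 1 of the 8 promoters, both times at Sstr3 and outside the sequences shown. The other letters searched, ATGAATA (3.27%), ATGCAAAT (1.74%) and ATGCAT (5.04%), occurred in none of the 8. The promoter of Ghsr held no match in this window.

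All 9 genes are protein-coding in GRCm38 with GENCODE M21. Gh (ENSMUSG00000020713) lies at chr11:106300271-106301865 on the minus strand, with 5 exons, and Ghsr (ENSMUSG00000051136) at chr3:27371351-27378010 on the plus strand. Sstr2 (ENSMUSG00000047904, chr11:113619342-113626028, plus strand) lies inside Slc39a11 on the opposite strand, but their exons do not overlap. Pou1f1 (ENSMUSG00000004842, chr16:65520511-65535005, plus strand) shares exonic sequence with the opposite-strand lincRNA Gm49631, and in the older, unstranded libraries reads from the pair cannot be told apart. Neurod4 (ENSMUSG00000048015) lies at chr10:130268152-130280240, minus strand. On the plus strand are Ghrhr (ENSMUSG00000004654, chr6:55376295-55388530) and Sstr1 (ENSMUSG00000035431, chr12:58211772-58214444), and on the minus strand Sstr3 (ENSMUSG00000044933, chr15:78537008-78544685) and Sstr5 (ENSMUSG00000050824, chr17:25489875-25497288).

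Library depth ranged from 3321845 to 14655095 counts, with the shallowest libraries in young hypothalamus (at most 5143128 counts) and 4527753 to 13342430 counts in pituitary. Levels are counts-per-million values (CPM) on the TMM-scaled library size. Young and older libraries differed in age, breeding history, library chemistry and counting, and these cannot be told apart, so levels are compared only within a cohort. Zeb1, the targeted gene, followed the labels in pituitary. Its levels were 95.6 to 98.5 CPM in young WT, 126 to 135 in Zeb1_200H and 132.1 to 141.4 in Zeb1_200M. In the older cohort they were 55.3 to 62.7, 70.1 to 76.1 and 80.6 to 93.0 CPM, and neither mutant group overlapped WT. In hypothalamus Zeb1_200M libraries were below every WT library in both cohorts, and in ovary the genotypes overlapped. The allele removes no exon, so Zeb1 counts check the level of the transcript and not the mutation itself. In the pituitary, the lactotrope genes Prl and Drd2 summed to 133656 to 158280 CPM in young WT and 28652 to 61804 in young Zeb1_200H. They summed to 39145 to 61326 in young Zeb1_200M. In the older pituitary the sums were 168429 to 210975 CPM in WT, 58807 to 119221 in Zeb1_200H and 53039 to 72448 in Zeb1_200M. Prl, a very abundant transcript, was thus lower in both mutants than in WT in both cohorts, and its part in the results was not tested. In whole tissue, fewer cells of a type and less RNA per cell cannot be told apart.

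Gh was by far the most abundant of the 9 genes. Its share of all counts was 2.43% to 4.16% in pituitaries of young mice and 8.92% to 12.9% in those of older mice. Per kilobase of exon, which allows genes to be compared, young WT pituitary held 32650 CPM of Gh, followed by Neurod4 (341), Pou1f1 (207), Ghrhr (35.8), Sstr1 (7.54), Sstr3 (2.02), Ghsr (1.31), Sstr2 (0.884) and Sstr5 (0.646). In this order Sstr3 overlapped Ghsr, and Sstr2 overlapped Sstr5, between libraries, while every other neighbouring pair was separate. In older WT pituitary the order was Gh (121378 CPM per kilobase), Ghrhr (67.9), Neurod4 (57.5), Pou1f1 (55.0), Sstr1 (16.5), Sstr3 (5.77), Sstr5 (2.704), Ghsr (0.810) and Sstr2 (0.758). Ghrhr, Neurod4 and Pou1f1 followed one another with overlapping libraries there, as did Ghsr and Sstr2. Thus the receptors that differed between genotypes, described below, were among the scarcest transcripts of the set, and the hormone itself the most abundant. Gh, Ghrhr and Pou1f1, all members of the chosen set, had high counts in every pituitary library. Their presence is no separate check of the somatotrope label.

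In WT mice the 9 genes separated the tissues. Between young pituitary and young hypothalamus, 7 of the 8 genes tested differed by edgeR's quasi-likelihood test (adjusted p under 0.05), against 72.2% of all genes tested. All 9 differed between young pituitary and ovary (68.3% of all genes), 4 of 4 tested differed between young hypothalamus and ovary (76.7%), and 9 of 9 differed between older pituitary and hypothalamus (76.8%). Differences between tissues were thus common among all genes as well. Gh, Ghrhr, Pou1f1 and Neurod4 were pituitary transcripts, with low levels in hypothalamus, where Ghrhr reached at most 0.504 CPM in any hypothalamus library. Ghsr and Sstr2 ran the other way. Ghsr in WT pituitary was 0.427 times its hypothalamic level in the young cohort (log2 -1.23) and 0.306 times in the older cohort (log2 -1.71), and Sstr2 was 0.216 times (log2 -2.21) and 0.0971 times (log2 -3.36) its hypothalamic level. Sstr1 had the highest mean of the somatostatin receptors per kilobase in both tissues, although in hypothalamus its libraries overlapped those of Sstr2. Sstr1 did not pass the test between young pituitary and hypothalamus (log2 0.32, adjusted p = 0.187).

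Across genotypes in the pituitary, the growth hormone transcript itself did not pass the test in any comparison, while the ghrelin receptor transcript rose in 3 of the 4 comparisons with WT and that of Sstr2 in both comparisons of older mice. In the young cohort, 3 of the 9 genes differed between Zeb1_200M and WT (Ghsr raised, Pou1f1 and Neurod4 lowered), where 21.5% of all genes tested did so and 11.5% were raised. In young Zeb1_200H, 1 of 9 differed (Ghsr raised), against 12.3% of all genes and 6.56% raised. In the older cohort, 1 of 9 differed in Zeb1_200M (Sstr2 raised), where 21.4% of all genes differed and 11.7% were raised. Older Zeb1_200H had 3 of 9 (Ghsr, Sstr2 and Sstr5, each raised), against 12.2% of all genes and 7.09% raised. The median log2 fold change of the 9 genes was 0.10 in young Zeb1_200M and 0.26 in young Zeb1_200H, beside 0.00 and 0.01 over all genes tested. For the older cohort the corresponding medians were 0.00 and -0.04, beside -0.01 and -0.01. Zeb1_200H and Zeb1_200M were compared with the same WT libraries, so their agreement is not independent. All 9 genes passed the filter on low counts in each of these comparisons.

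**Figure D1:**
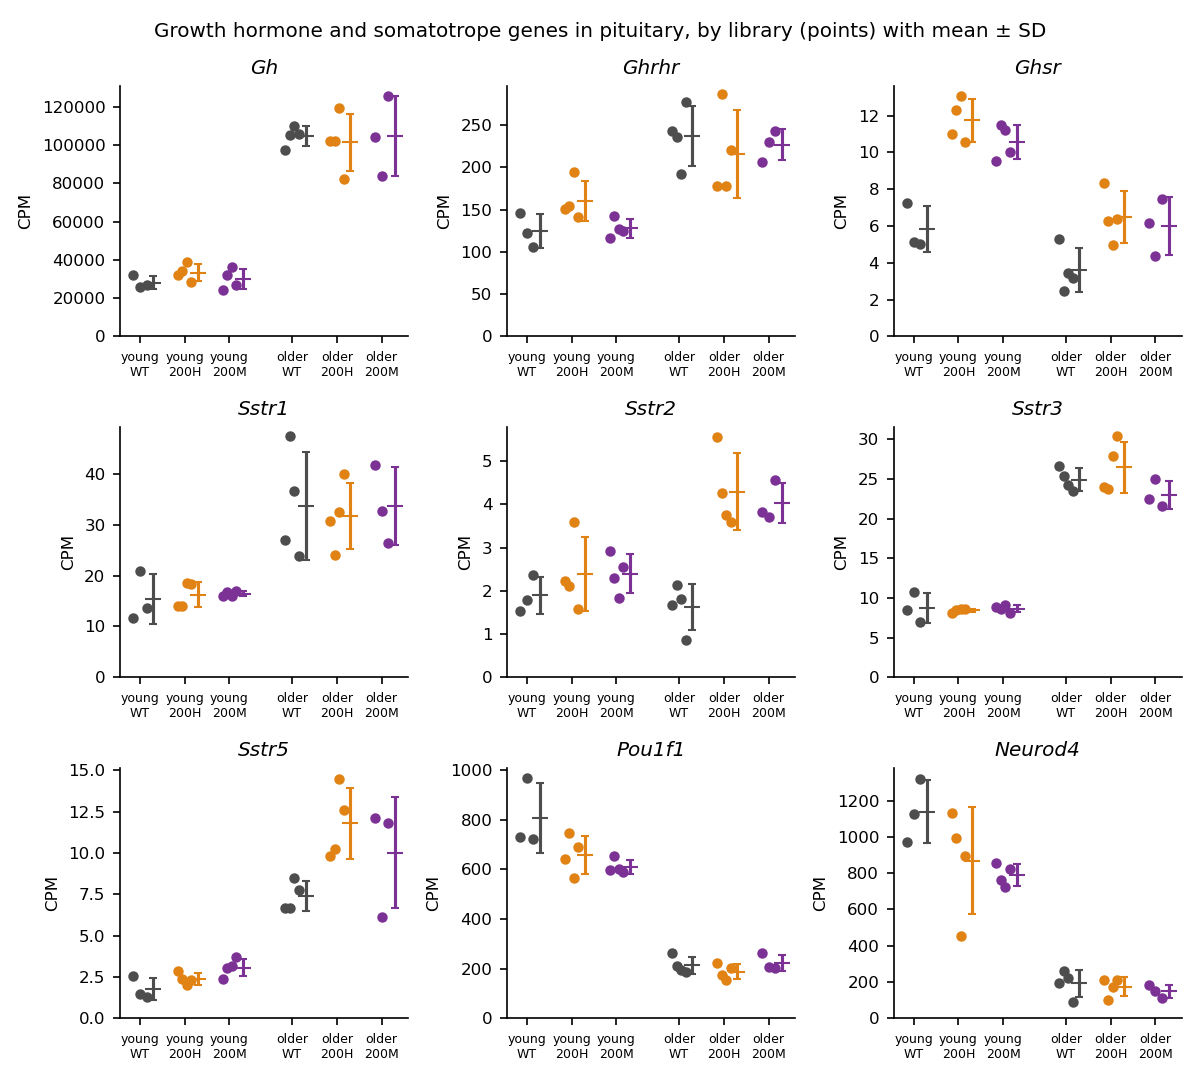
Levels of the 9 genes in pituitary, 1 panel per gene, in CPM (y axis, from 0) for young and older WT, 200H (Zeb1_200H) and 200M (Zeb1_200M) mice (x axis); points are libraries, and the dash with bars beside them is the mean ± SD. Ghsr in every young mutant library lies above the 3 young WT libraries, Sstr2 in every older mutant library lies above the 4 older WT libraries, and Gh overlaps between all genotypes in both cohorts.

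Gh counts reached 229944 or more in each young WT pituitary library, so counting error is negligible beside the spread between mice. Young WT libraries held 32117, 25736 and 26579 CPM, Zeb1_200H libraries 32290, 34133, 38874 and 28184, and Zeb1_200M libraries 24332, 32248, 36211 and 26912. The 3 genotypes overlapped, with the highest value in a heterozygote and the lowest in a homozygote. Group means were 28144 ± 3467 CPM (SD, n = 3) in WT, 33370 ± 4432 (n = 4) in Zeb1_200H and 29926 ± 5331 (n = 4) in Zeb1_200M. The log2 fold change was 0.10 ± 0.11 (SE) in Zeb1_200M, with a 95% interval of -0.13 to 0.33 (edgeR adjusted p = 0.559), and 0.26 ± 0.10 in Zeb1_200H (adjusted p = 0.114). The heterozygous value passed in 3 of 13 alternatives: total counts, no filter on low counts, and without Zeb1_200H replicate 4 (log2 0.33, adjusted p = 0.0464). In Zeb1_200M it passed without the filter only (0.14, adjusted p = 0.00525).

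Older pituitaries gave a similar picture for Gh. WT libraries held 97419, 105066, 109996 and 106030 CPM, Zeb1_200H libraries 101998, 102049, 119170 and 82512, and Zeb1_200M libraries 104448, 83989 and 125834. The mutant libraries lay on both sides of the narrow WT range. Their SDs (14981 CPM in Zeb1_200H, n = 4, and 20924 in Zeb1_200M, n = 3) exceeded that of WT (5258, n = 4), and the difference in spread was not tested. Fitted log2 fold changes were 0.0022 ± 0.12 in Zeb1_200M (95% interval -0.26 to 0.27, adjusted p = 0.993) and -0.04 ± 0.12 in Zeb1_200H (adjusted p = 0.858). Differences smaller than these intervals could not be seen with this number of mice.

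Ghrhr, the receptor through which growth hormone-releasing hormone drives the somatotrope, had young WT levels of 146, 123 and 106 CPM. Young Zeb1_200H libraries held 151, 154, 194 and 142 CPM, and Zeb1_200M libraries 116, 142, 127 and 125. Only the lowest heterozygote fell within the WT range, whereas all 4 homozygotes did. The heterozygous log2 fold change of 0.37 ± 0.12 missed the threshold (adjusted p = 0.0621). It passed in 5 of 13 alternatives, among them DESeq2 (adjusted p = 0.0338), total counts (0.0192), all 3 genotypes in one fit (0.0426) and leaving out WT replicate 1 (0.0321). The value in homozygotes was 0.05 (adjusted p = 0.790). Between Zeb1_200M and Zeb1_200H, Ghrhr gave -0.33 ± 0.09, with an unadjusted p of 0.00349 in edgeR's test and an adjusted p of 0.449. In the older cohort WT ranged from 192 to 278 CPM, Zeb1_200H from 178 to 287 and Zeb1_200M from 207 to 243, with log2 fold changes of -0.13 and -0.07 (adjusted p = 0.637 and 0.734).

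Ghsr, the ghrelin receptor, was the member raised most widely. Young WT pituitaries held 7.25, 5.15 and 5.04 CPM, from 46 to 71 counts. Young Zeb1_200H libraries held 11.0, 12.3, 13.1 and 10.6 CPM, and Zeb1_200M libraries 9.52, 11.5, 11.2 and 10.0. Every one of the 8 mutant libraries was above every WT library. The means were 5.81 ± 1.25 CPM in WT (SD, n = 3), 11.7 ± 1.16 in Zeb1_200H and 10.6 ± 0.923 in Zeb1_200M (n = 4 each). By edgeR's test Ghsr rose 2.03-fold in Zeb1_200H (log2 1.02 ± 0.17, adjusted p = 0.00200) and 1.83-fold in Zeb1_200M (log2 0.87 ± 0.17, 95% interval 0.51 to 1.24, adjusted p = 0.00196). The sum of the posterior lobe markers, 6 genes including Avp, Oxt and Gfap, moved with Ghsr in the young cohort. It was 97.7 to 118 CPM in WT, 122 to 131 in Zeb1_200H and 124 to 149 in Zeb1_200M, with none of the 6 at 0. Nkx2-1 and Col25a1 (2 of 5 tested) were raised in Zeb1_200M, and 0 of 5 in Zeb1_200H. Oxt (log2 -0.19) and Gfap (0.29) were not called in Zeb1_200M, and Avp was not tested. Thyrotrope markers moved with Ghsr too, with Trhr and Dio2 (2 of 3) raised in both mutants. Their sums were 285 to 358, 390.0 to 482 and 445 to 501 CPM in WT, Zeb1_200H and Zeb1_200M. Of the corticotrope markers, Crhr1 and Tbx19 (2 of 4) were raised in both mutants, while the sums overlapped (704 to 982, 781 to 959 and 752 to 1046 CPM). Of the gonadotrope markers, Nr5a1 was raised and Lhb and Cga were lowered in both. The part of these cells in the result was not tested.

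In the older pituitaries the mutant groups overlapped WT in Ghsr. WT libraries held 5.28, 2.48, 3.44 and 3.16 CPM (17 to 38 counts), Zeb1_200H libraries 8.33, 6.29, 4.95 and 6.35, and Zeb1_200M libraries 6.16, 4.35 and 7.46. The highest WT library overlapped the lowest mutant library of each genotype. Ghsr rose 1.87-fold in Zeb1_200H (log2 0.90 ± 0.25, edgeR adjusted p = 0.0324), a call that was lost when any of 6 single libraries was left out (Zeb1_200H replicates 1, 2 or 4, or WT replicates 2, 3 or 4, adjusted p up to 0.112). In Zeb1_200M the fold change was log2 0.73 ± 0.29 (adjusted p = 0.0952), and without WT replicate 1, the highest WT library, it was 0.98 (adjusted p = 0.0269). The Zeb1_200M effect on Ghsr did not pass a test of a difference between the cohorts (log2 -0.19 ± 0.34, 95% interval -0.89 to 0.51, adjusted p = 0.964).

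Sstr1 and Sstr3, the more abundant of the inhibitory somatostatin receptors, passed no test between genotypes. Sstr1 ranged from 11.8 to 20.9 CPM in young WT, from 14.1 to 18.5 in Zeb1_200H and from 16.0 to 16.9 in Zeb1_200M, and from 23.8 to 47.4, 24.0 to 39.9 and 26.5 to 41.8 CPM in the older groups. Sstr3, whose 3′ UTR holds the miR-200a match printed above, ranged from 6.97 to 10.7, from 8.09 to 8.58 and from 8.14 to 9.08 CPM in the young groups. In the older groups Sstr3 ranged from 23.5 to 26.7, from 23.8 to 30.4 and from 21.5 to 24.9 CPM. In both genes the mutants lay within or around the WT range. Sstr1 gave log2 0.11 and 0.08 in young and -0.0076 and -0.09 in older Zeb1_200M and Zeb1_200H pituitaries, and Sstr3 gave 0.0083, -0.04, -0.11 and 0.09 in the same order.

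Sstr2, through which somatostatin restrains growth hormone release together with SSTR5, was the member with the largest fold change called in the older pituitary. Older WT libraries held 1.67, 2.14, 1.82 and 0.873 CPM, from 12, 25, 9 and 8 counts. Zeb1_200H libraries held 5.55, 4.27, 3.76 and 3.60 CPM (48, 40, 19 and 34 counts), and Zeb1_200M libraries 3.82, 3.71 and 4.56 (18, 29 and 22 counts). All 7 mutant libraries were above all 4 WT libraries, with no overlap. Means were 1.62 ± 0.537 CPM in WT (n = 4), 4.30 ± 0.885 in Zeb1_200H (n = 4) and 4.03 ± 0.461 in Zeb1_200M (n = 3). Sstr2 rose 2.65-fold in Zeb1_200H (log2 1.40 ± 0.28, adjusted p = 0.00601) and 2.44-fold in Zeb1_200M (log2 1.29 ± 0.30, adjusted p = 0.0101).

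Several lists of markers of other cells rose with Sstr2 in older Zeb1_200M pituitary, and the same values stand beside Ghsr. The melanotrope genes Pax7, Pcsk2 and Oacyl (intermediate lobe) were all 3 raised, summing to 396 to 669 CPM in WT, 190 to 562 in Zeb1_200H and 553 to 1084 in Zeb1_200M, with none at 0. Corticotrope genes, led by Pomc, were raised in 2 of 4, and summed to 8883 to 12115, 3803 to 10596 and 11583 to 24724 CPM. Posterior lobe genes summed to 67.0 to 75.4, 61.4 to 99.9 and 94.0 to 125 CPM, with 3 of 5 tested genes raised in Zeb1_200M and 1 of 5 in Zeb1_200H. Of 7 hypothalamic markers, which summed to only 1.95 to 3.44, 2.55 to 4.13 and 6.84 to 7.29 CPM, Pmch and Crh were at 0 in every WT and Zeb1_200M library, and Th was the 1 called. Thyrotrope genes were raised in 2 of 3 (Trhr and Dio2) in both older mutants, with sums of 272 to 344, 227 to 395 and 372 to 419 CPM. The corticotrope gene Crhr1 was raised in both. Gonadotrope genes moved in both directions. Nr5a1 was raised in both mutants, while Lhb was lowered in both (log2 -2.33 in Zeb1_200M and -1.04 in Zeb1_200H). Cga was lowered in Zeb1_200M (-0.81) and not called in Zeb1_200H. In Zeb1_200H, where Sstr2 rose as well, none of the 3 melanotrope genes passed the test. Their part in the Sstr2 result was not tested.

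Young Sstr2 levels did not separate the genotypes. WT libraries held 1.53, 1.79 and 2.36 CPM, Zeb1_200H libraries 2.24, 2.12, 3.59 and 1.58, and Zeb1_200M libraries 2.92, 2.31, 1.83 and 2.54. The groups overlapped, and the log2 fold changes were 0.35 ± 0.30 in Zeb1_200M (adjusted p = 0.459) and 0.34 in Zeb1_200H (adjusted p = 0.596). A test of the difference between the cohorts in the Zeb1_200M effect gave a log2 difference of 0.89 ± 0.42, older minus young, with an unadjusted p of 0.0489 and an adjusted p of 0.726. No member passed this test (0 of 9 called by edgeR and 0 by DESeq2, 2 at unadjusted p under 0.05), against 0.0273% of all genes. The rise of Sstr2 in the older cohort is therefore not shown to differ from the young cohort.

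Sstr5 leaned the same way. In older WT it stood at 6.67, 6.66, 8.49 and 7.74 CPM, in Zeb1_200H at 9.84, 10.2, 14.5 and 12.6, and in Zeb1_200M at 12.1, 6.14 and 11.8. Zeb1_200H libraries were all above WT, while 1 of the 3 Zeb1_200M libraries was below it. Sstr5 rose 1.59-fold in Zeb1_200H (log2 0.67 ± 0.17, edgeR adjusted p = 0.0205), a call lost on leaving out Zeb1_200H replicate 3 or 4 or WT replicate 1 or 2 (adjusted p up to 0.0709). The older Zeb1_200M value was 0.41 (adjusted p = 0.240), and 0.71 (adjusted p = 0.0342) without the low replicate 2. In the young cohort the level was 2.55, 1.46 and 1.29 CPM in WT, 2.00 to 2.84 in Zeb1_200H and 2.38 to 3.69 in Zeb1_200M, with 29 to 43 counts in the last. Young Zeb1_200M gave log2 0.78 ± 0.31 (adjusted p = 0.0856), and 1.16 (adjusted p = 0.0361) without WT replicate 1, the highest WT library.

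**Figure D2:**
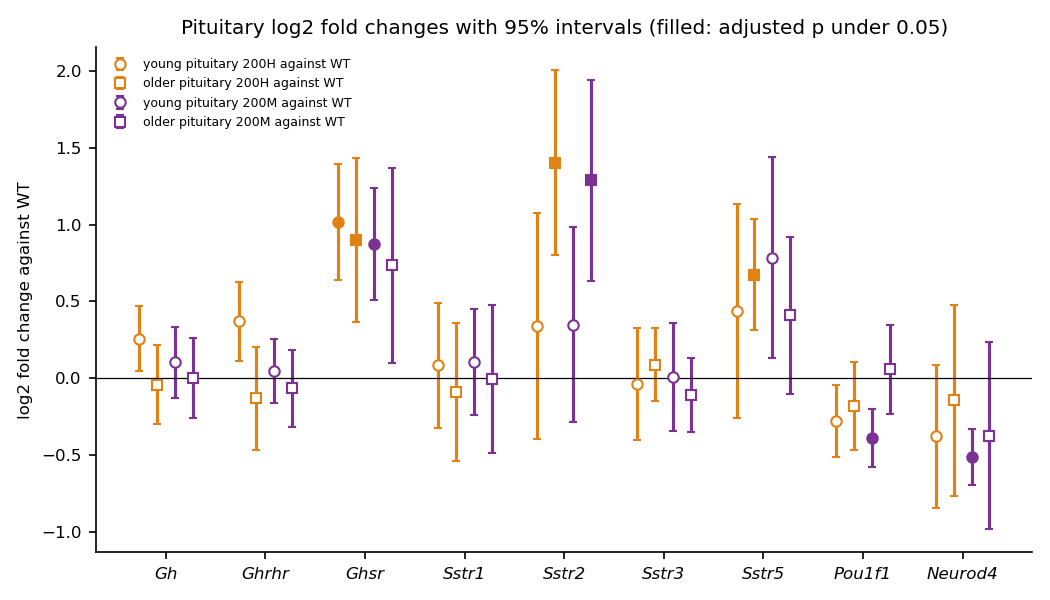
Log2 fold change against WT (y axis) of each of the 9 genes (x axis) in pituitary, for young (circles) and older (squares) 200H (Zeb1_200H, orange) and 200M (Zeb1_200M, purple) mice; bars are 95% intervals and filled symbols have an adjusted p under 0.05. Ghsr is filled in 3 of the 4 comparisons, Sstr2 in both older ones, and Gh lies near 0 in all but young 200H, where it is 0.26.

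Because SSTR subtypes share the ligand somatostatin, their makeup was also expressed as shares of the summed CPM per kilobase of the 4 receptors. Sstr1 made up 67.2% ± 5.63 of this sum in young WT pituitary (SD, n = 3), Sstr3 18.4%, Sstr2 8.25% and Sstr5 6.19%. In older WT pituitary Sstr1 made up 63.0% and Sstr2 2.90% ± 0.623. Sstr2 accounted for 7.36% ± 2.17 in older Zeb1_200H and 7.01% ± 1.58 in older Zeb1_200M, so it remained a minor receptor there. The hypothalamus had a different composition, with Sstr2 at 37.2% in young and 36.8% in older WT.

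**Figure D3:**
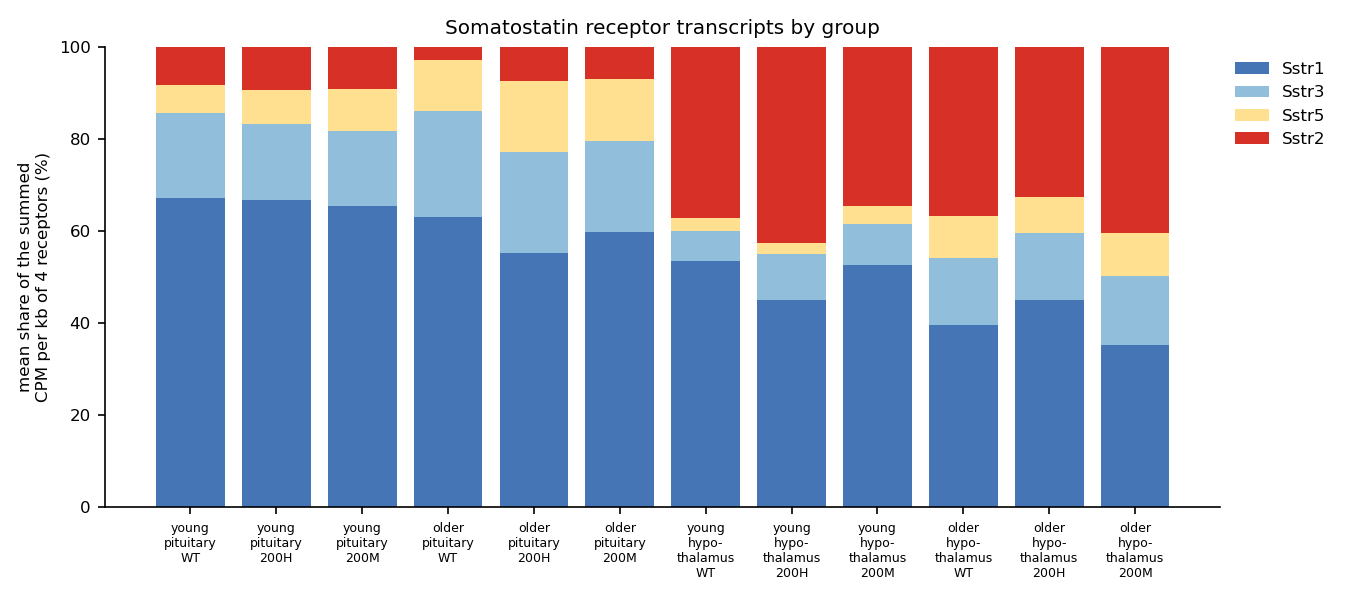
Mean share (y axis, percent) of Sstr1, Sstr3, Sstr5 and Sstr2 in the summed CPM per kilobase of the 4 somatostatin receptors, stacked, for each cohort and genotype of pituitary and hypothalamus (x axis). Sstr1 is the largest part of every pituitary bar, and Sstr2 grows from 2.90% in older WT pituitary to about 7% in both older mutant groups.

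Both transcription factors of the lineage were lower in young Zeb1_200M pituitary. Pou1f1 stood at 731, 968 and 720 CPM in young WT, at 640, 745, 564 and 689 in Zeb1_200H and at 597, 653, 599.7 and 588 in Zeb1_200M. All 4 homozygous libraries were below all 3 WT libraries, and 1 heterozygous library overlapped WT. Pou1f1 fell to 0.764 times WT in Zeb1_200M (log2 -0.39 ± 0.09, 95% interval -0.58 to -0.20, adjusted p = 0.00492). In Zeb1_200H the value was -0.28 ± 0.11 (adjusted p = 0.125).

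Neurod4, which carries a miR-200a seed match, had 974, 1127 and 1318 CPM in young WT, 1134, 992, 456 and 897 in Zeb1_200H and 853, 765, 722 and 821 in Zeb1_200M. The 4 homozygotes were again all below WT, while the heterozygotes spread from within the WT range to 456 CPM in replicate 3. Neurod4 fell to 0.700 times WT in Zeb1_200M (log2 -0.51 ± 0.09, adjusted p = 0.000516), a call that was lost when all 3 genotypes entered one fit (adjusted p = 0.0679). In Zeb1_200H the log2 fold change was -0.38 ± 0.22 (adjusted p = 0.302).

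Neither factor passed the test in the older cohort. Older Pou1f1 ranged from 186 to 264 CPM in WT, from 153 to 222 in Zeb1_200H and from 201 to 262 in Zeb1_200M (log2 0.06 in Zeb1_200M, adjusted p = 0.804). Older Neurod4 stood at 194, 263, 224 and 89.4 CPM in WT, at 100.3 to 211 in Zeb1_200H and at 183, 149.9 and 112 in Zeb1_200M, with the lowest library a WT one. Its log2 fold change in Zeb1_200M was -0.38 ± 0.28 (adjusted p = 0.375), and -0.61 (adjusted p = 0.0122) without that WT library, replicate 4. For Pou1f1 the Zeb1_200M effects of the cohorts differed by log2 0.39 ± 0.17, older minus young, with an unadjusted p of 0.0364 and an adjusted p of 0.705.

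The mutants were also compared with each other. In young pituitary 0 of 9 genes passed edgeR's test of Zeb1_200M against Zeb1_200H (0 by DESeq2, and 1, Ghrhr, at unadjusted p under 0.05), against 0.0383% of all genes. In older pituitary 0 of 9 passed (0 by DESeq2, 0 at unadjusted p under 0.05), against 0.121%. Ghsr and Sstr2 overlapped between the mutant genotypes in both cohorts.

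The scaling of the libraries mattered for direction in the pituitary as a whole. With total counts in place of TMM, the median log2 fold change of all genes moved to 0.12 in young Zeb1_200M, 0.13 in young Zeb1_200H and 0.16 in both older comparisons. The called genes then split into 3589 raised and 1083 lowered in young Zeb1_200M, in place of 2093 and 1820, and into 3338 and 635 in older Zeb1_200M, in place of 1716 and 1437. In Zeb1_200H the split was 2328 and 595 in place of 1185 and 1033 (young) and 2489 and 370 in place of 1058 and 767 (older). No called member changed sign. Gh in young Zeb1_200H then passed the test (log2 0.38, adjusted p = 0.0203), of which 0.13 is the shift of the median gene.

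In the hypothalamus, where GHRH, somatostatin and ghrelin signals are integrated, Gh and Ghsr gave the values of interest. In young hypothalamus 0 of 5 members tested differed between Zeb1_200M and WT by edgeR (0 by DESeq2, 1 at unadjusted p under 0.05), against 0.0200% of all genes. In young Zeb1_200H, 0 of 4 differed (0 by DESeq2 and 0 at unadjusted p under 0.05), against 0.0202%, and between the mutants 0 of 4 (0 and 0), where 0% of all genes did so (682 at unadjusted p under 0.05 and 0 by DESeq2). In older hypothalamus 1 of 6 members tested, Gh, differed in Zeb1_200M, against 0.00622% of all genes. Of all genes, 2904 had an unadjusted p under 0.05 there, and DESeq2 called many more than edgeR, as given at the end. Older Zeb1_200H gave 0 of 6 (0 by DESeq2, 2 at unadjusted p under 0.05), where 0% of all genes were called (445 at unadjusted p under 0.05, 7 by DESeq2). The older mutants against each other gave 0 of 6 (0 by DESeq2, 1 at unadjusted p under 0.05), with 0% of all genes called (3144 and 687).

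Gh counts in older hypothalamus were 0, 0, 6 and 4 in WT, 52, 21, 15 and 400 (39.8 CPM) in Zeb1_200H and 85, 77 and 95 in Zeb1_200M. Every mutant library exceeded every WT library, and Zeb1_200H replicate 4 stood far above the rest. By edgeR the Zeb1_200M value was log2 4.98 ± 0.48 (adjusted p = 0.00296), the only gene of 16067 called, and it rested on 10 WT counts in all. The call held in 11 of the 12 alternatives that gave an adjusted p and was lost with all 3 genotypes in one fit (adjusted p = 0.112). DESeq2 gave no adjusted p for Gh here and so did not call it. In Zeb1_200H the log2 fold change was 5.70 ± 1.34 and did not pass (adjusted p = 1.00), and without replicate 4 it was 3.48 (adjusted p = 0.539). These levels remained tiny beside those of pituitary: Zeb1_200M hypothalami held 6.52 to 7.93 CPM of Gh, against 83989 CPM or more in older Zeb1_200M pituitaries.

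Prl, the other hormone that dominates pituitary counts, moved with Gh in the hypothalamus. Its counts were 0, 1, 24 and 6 in older WT, 87, 35, 24 and 248 in Zeb1_200H and 74, 126 and 95 in Zeb1_200M. The library with the most Gh was also the one with the most Prl, and the 2 WT libraries without Gh held 0 and 1 Prl counts. Prl gave log2 3.60 in older Zeb1_200M (adjusted p = 0.0980). Ghrhr and Pou1f1 were near 0 in every library. The part of pituitary RNA in the hypothalamic Gh values was not tested.

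In young hypothalamus the direction was the other. Gh counts were 19, 5, 14 and 29 in WT, 0, 0, 2 and 2 in Zeb1_200H and 1, 7, 11 and 14 in Zeb1_200M, beside Prl counts of 66, 16, 96 and 112, then 0, 16, 0 and 19, then 1, 10, 10 and 19. Heterozygotes lay below every WT library in Gh, and homozygotes overlapped WT. Gh gave log2 -1.02 ± 0.46 in Zeb1_200M (adjusted p = 0.871) and was not tested in Zeb1_200H, where it was filtered as low. Prl fell in both, with log2 -2.86 (adjusted p = 0.00605) and -2.85 (adjusted p = 0.00400). Other pituitary hormone genes did not follow Prl. Tshb rose in Zeb1_200M (log2 4.81, edgeR adjusted p = 0.00642) and was not tested in Zeb1_200H. Cga gave log2 1.24 in Zeb1_200M and 0.69 in Zeb1_200H, neither called. A count of 0 allows up to 3 counts, and such floors cover counting error only.

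**Figure D4:**
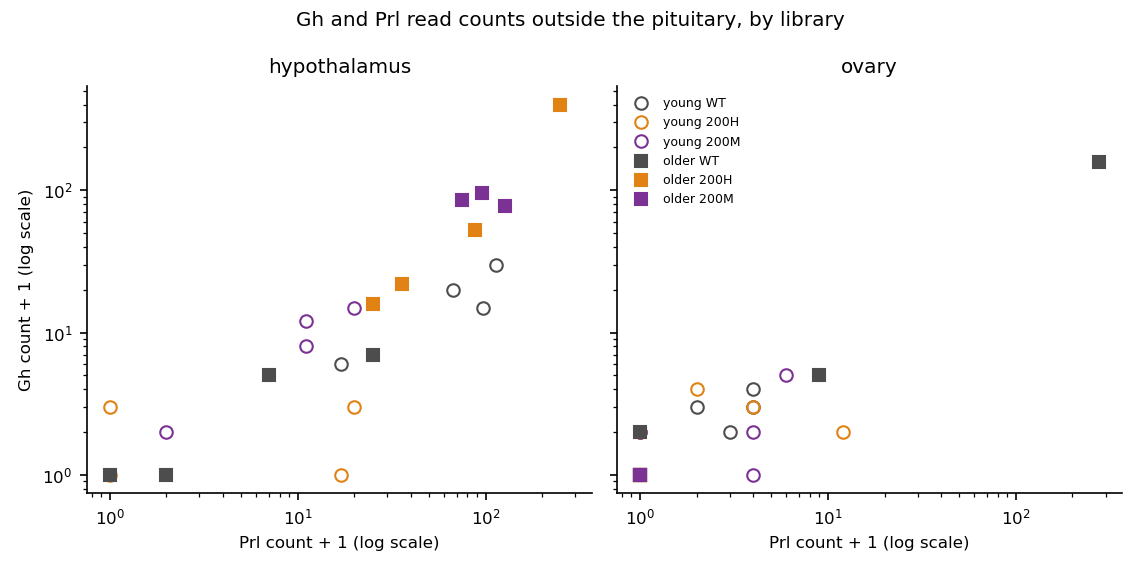
Read counts of Gh (y axis, count + 1, log scale) against Prl (x axis, count + 1, log scale) in each hypothalamus (left) and ovary (right) library, coloured by genotype, open for young and filled for older mice. An older 200H hypothalamus (400 Gh, 248 Prl) and an older WT ovary (157 Gh, 276 Prl) hold the most counts of both genes in their tissue.

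Hypothalamic Ghsr leaned down in older mutants, opposite to its rise in pituitary. WT libraries held 12.1, 12.7, 11.2 and 14.0 CPM, Zeb1_200H libraries 10.1, 8.68, 10.9 and 9.25, and Zeb1_200M libraries 8.68, 8.98 and 6.20. All mutant libraries were below all WT libraries. The log2 fold change was -0.67 ± 0.16 in Zeb1_200M, with an unadjusted p of 0.00136 and an adjusted p of 0.112 in edgeR (0.0175 in DESeq2). In Zeb1_200H it was -0.37 ± 0.12, with an unadjusted p of 0.00817 and an adjusted p of 1.00. Young Ghsr did not share this pattern: WT held 10.6 to 17.6 CPM, Zeb1_200H 9.42 to 18.1, and Zeb1_200M 11.3 to 13.1 apart from replicate 1 at 23.0 (log2 0.20 ± 0.22, adjusted p = 0.921, and -0.07 without replicate 1).

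The somatostatin receptors showed no call in either hypothalamus cohort. Sstr2 in older hypothalamus ranged from 16.5 to 21.6 CPM in WT, from 12.8 to 19.5 in Zeb1_200H and from 15.9 to 21.8 in Zeb1_200M (log2 0.0038 ± 0.14 in Zeb1_200M), and the groups overlapped. Per kilobase, older WT hypothalamus was ordered Sstr1 (9.28 CPM), Sstr2 (8.59), Sstr3 (3.38), Ghsr (2.82) and Sstr5 (2.11), with overlap between Sstr1 and Sstr2 and between Sstr3 and Ghsr. Young WT hypothalamus was ordered Sstr1 (5.72), Gh (4.66), Sstr2 (3.92) and Ghsr (2.93), each overlapping the next, followed by Sstr3 (0.681). The remaining members were below Sstr3 there.

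Whether the Zeb1_200M effect differed between tissues was tested directly. In the older cohort 3 of 9 members passed a test of the pituitary effect minus the hypothalamus effect, against 17.5% of all genes. Ghsr differed by log2 1.40 ± 0.33 (adjusted p = 0.00743), from 0.73 in pituitary and -0.67 in hypothalamus, and Sstr2 by 1.28 ± 0.32 (adjusted p = 0.00966), from 1.29 and 0.0038. Gh differed by -4.95 ± 0.43 (adjusted p = 4.66e-07), from 0.0022 and 4.98, and rests on the low hypothalamic counts above. These 3 calls were made in all 19 alternatives run for each. The fit of all 3 genotypes together, in which the hypothalamic Gh call was lost, was not among these alternatives. In the young cohort 0 of 9 passed by edgeR (0 by DESeq2, 2 at unadjusted p under 0.05), against 10.5% of all genes. Young Ghsr gave 0.68 ± 0.30 (adjusted p = 0.174), and 0.94 (adjusted p = 0.0224) without Zeb1_200M hypothalamus replicate 1. That library held 76.1 CPM of summed hypothalamus markers where the WT libraries held 367 to 415.

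The hypothalamic ligands themselves did not pass the test. Ghrh, from the arcuate neurons that drive growth hormone release, averaged 7.74 ± 2.05, 8.95 ± 1.29 and 10.6 ± 7.37 CPM in young WT, Zeb1_200H and Zeb1_200M hypothalami (SD, n = 4 each). It averaged 7.85 ± 1.07, 8.17 ± 1.51 and 11.0 ± 4.42 in the older groups (n = 4, 4 and 3). Sst, encoding somatostatin, averaged 166 ± 6.13, 155 ± 20.5 and 224 ± 71.9 CPM in the older groups, with log2 0.42 in Zeb1_200M (unadjusted p = 0.0192, adjusted p = 0.199 in edgeR). The larger Zeb1_200M means came with larger SDs.

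In the ovary, Sstr3 was the only member that passed the filter on low counts, so 1 of 9 could be tested. Young WT ovaries held 0.721 to 2.68 CPM of Sstr3, and older groups averaged 4.31 ± 1.36, 3.52 ± 1.48 and 3.38 ± 1.46 CPM in WT, Zeb1_200H and Zeb1_200M (SD, n = 4 each), with overlap. It gave log2 -0.06 (adjusted p = 0.975) in young Zeb1_200M, 0.54 (adjusted p = 0.912) in young Zeb1_200H, -0.35 ± 0.40 (adjusted p = 0.679) in older Zeb1_200M and -0.28 (adjusted p = 0.857) in older Zeb1_200H. In each of the 6 ovary comparisons 0 of 1 was called (0 by DESeq2, 0 at unadjusted p under 0.05). The shares of all genes called were 2.58% in young Zeb1_200M, 0.00510% in young Zeb1_200H and 0% between the young mutants (648 at unadjusted p under 0.05, 9 by DESeq2). They were 2.71% in older Zeb1_200M, 0% in older Zeb1_200H (1160 and 23) and 1.61% between the older mutants. Ghrhr and Neurod4 were at 0 counts in all 12 older ovary libraries. Gh was at 0 in all 8 older mutant ovaries, while WT replicate 1 held 157 Gh counts (13.8 CPM) beside 276 of Prl.

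The wider growth hormone axis was read from 4 lists of 52 genes: hypothalamic ligands, pituitary receptors and signalling, GH and IGF targets, and lineage transcription factors. In young Zeb1_200M pituitary 17 of 39 tested genes passed edgeR's test, 11 raised and 6 lowered, with a median log2 fold change of 0.09. Young Zeb1_200H had 10 of 39 (7 raised, 3 lowered, median 0.08), older Zeb1_200M 17 of 38 (13 and 4, median 0.11) and older Zeb1_200H 6 of 38 (5 and 1, median 0.11). The shares of all genes called were those given above (21.5%, 12.3%, 21.4% and 12.2%), and the all-gene medians were -0.01 to 0.01. Without young WT replicate u, a WT library whose number the labels leave unclear, 3 were called in young Zeb1_200H, and older Zeb1_200M had 10 without its replicate 2.

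GH and IGF targets, the list with the most genes tested, held most of the calls in Zeb1_200M. There, 6 of 17 tested genes rose and 3 fell in the young cohort, and 7 rose and 4 fell in the older one. Of all genes tested, 21.5% and 21.4% were called in these comparisons. Igf2, the fetal insulin-like growth factor, ranged from 9.85 to 12.1 CPM in young WT, 19.6 to 26.5 in Zeb1_200H and 29.8 to 46.5 in Zeb1_200M, and from 5.21 to 7.08, 11.3 to 15.7 and 17.2 to 21.6 CPM in the older groups. The 3 genotypes did not overlap in either cohort, in the order WT, heterozygous, homozygous. Igf2 rose by log2 1.69 in Zeb1_200M of both cohorts (adjusted p = 2.28e-06 young and 1.77e-05 older) and by 1.08 and 1.15 in Zeb1_200H.

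Igf1, the main mediator of growth hormone action, ranged from 2.84 to 5.86 CPM in older WT, 8.52 to 12.6 in Zeb1_200H and 6.63 to 9.85 in Zeb1_200M. It rose in both older groups (log2 1.40 and 1.11) and in young Zeb1_200H (0.35, adjusted p = 0.0345). The IGF-binding protein genes Igfbp4 (log2 0.43 young, 0.34 older) and Igfbp6 (1.21 and 1.21) rose in Zeb1_200M of both cohorts, while Igf1r, the IGF1 receptor, fell (-0.48 and -0.34). Among signalling feedback genes, Cish rose (0.75 and 0.78), Socs3 fell (-0.89 and -1.40) and Stat5a, the transducer, fell (-0.54 and -0.84). Socs2, a growth hormone feedback inhibitor, rose in Zeb1_200H of both cohorts (0.43 and 0.40). It also rose in young Zeb1_200M (0.56) and was not called in older Zeb1_200M (0.20). Members of this list therefore moved in both directions.

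Pituitary receptors and signalling genes gave 3 raised and 1 lowered of 9 tested in young Zeb1_200M, and 4 raised of 10 in older Zeb1_200M. The shares of all genes called were 21.5% and 21.4%. Gnas, the stimulatory G protein through which GHRHR acts (log2 0.25 and 0.42), Prkar1a, a regulatory subunit of protein kinase A (0.25 and 0.49), and Nr3c1, the glucocorticoid receptor (0.62 and 0.80), rose in both cohorts. Thrb, a thyroid hormone receptor, fell in the young one (-0.64), and Sstr4 rose in the older one (1.39). Sstr4 was filtered as low in older Zeb1_200H against WT, so its entry into the older test depended on the Zeb1_200M libraries. Nr3c1 also rose in Zeb1_200H (0.64 young, 0.70 older).

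Lineage transcription factors gave 2 raised and 2 lowered of 13 tested in young Zeb1_200M and 2 raised of 11 in older Zeb1_200M. Beside these stand 21.5% and 21.4% of all genes called. Lhx4, a LIM-homeodomain factor needed for early pituitary growth, rose in both (log2 2.75 ± 0.67 and 2.08 ± 0.46). Between Zeb1_200H and WT it was filtered as low in both cohorts. Its entry into the test thus depended on the Zeb1_200M libraries, and its fold changes are imprecise. Rxrg rose in the young cohort (0.55) and Gata2 in the older (0.39). In young Zeb1_200H, Rxrg (0.64) and Bhlhe22 (1.13) rose, and in older Zeb1_200H Lhx3 fell (-0.32).

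In hypothalamus no gene of the 4 lists passed edgeR's test in any of the 6 comparisons, with 37 to 45 tested in each. Between 1 and 12 had an unadjusted p under 0.05, and DESeq2 called 1 in older Zeb1_200M against WT, 1 against Zeb1_200H and 0 in the others. Between Zeb1_200M and Zeb1_200H pituitaries, 0 of 38 passed in the young cohort (4 at unadjusted p under 0.05, 1 by DESeq2) and 1 of 40 in the older, Socs3 (log2 -1.07 ± 0.17, adjusted p = 0.0373). Ovary had 3 of 32 in young Zeb1_200M (Stat5a -0.45, Cish -1.19 and Foxo1 0.44) and 2 of 30 in older Zeb1_200M (Cish -2.80 and Igf2 1.21). Cish thus fell in the ovary and rose in the pituitary, and the difference between the tissues was not tested.

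**Figure D5:**
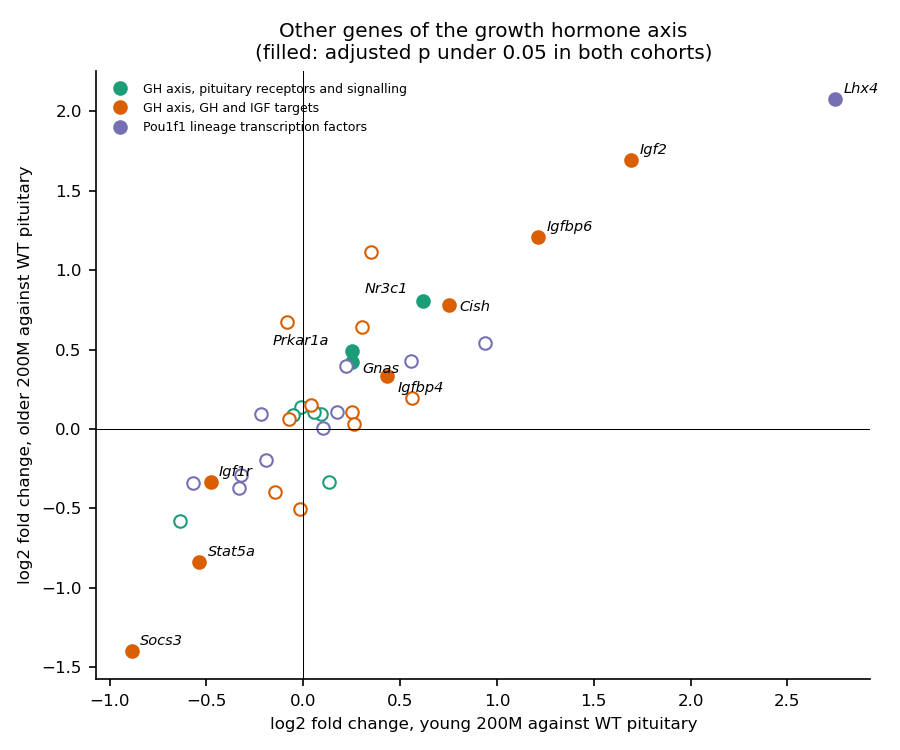
Log2 fold change of 200M (Zeb1_200M) against WT pituitary in the young cohort (x axis) and the older cohort (y axis) for genes of 3 lists of the growth hormone axis tested in both; filled points have an adjusted p under 0.05 in both cohorts. The named genes lie in the upper right or lower left, from Socs3 (-0.89 and -1.40) to Igf2 (1.69 and 1.69) and Lhx4 (2.75 and 2.08). Lhx4 was filtered as low in 200H against WT in both cohorts.

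Genes whose pituitary level followed Gh most closely were found by the Pearson correlation of log2(CPM + 0.5), as deviations from the mean of each cohort and genotype, over 22 libraries and 8771 genes with at least 10 CPM. The highest were Ceacam10 (r = 0.76), Mpv17 (0.75), Ptpdc1 (0.74), Gorasp1 (0.73) and Rdh11 (0.73). Of the other members, Sstr5 (0.49), Ghsr (0.35), Ghrhr (0.22) and Sstr2 (0.09) had positive values, while Sstr1 (-0.24), Sstr3 (-0.24), Pou1f1 (-0.36) and Neurod4 (-0.37) were negative. Ghsr, Sstr2, Sstr3 and Sstr5 lay below the 10 CPM limit, and their values are given beside the ranking. Ghrhr and Ghsr followed Gh in the young libraries (r = 0.74 and 0.84) and not in the older ones (-0.19 and 0.13). The correlations are a description, because all genes share the depth and dissection of each library.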

How the data were processed

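Processed gene counts of 69 libraries were analysed. The authors deposited raw counts per gene: older pituitary and hypothalamus libraries (poly(A)-selected, unstranded, single-end reads of 50 nt) were aligned with STAR 2.7.1a to mm10 and counted with HTSeq 0.9.1, older ovary libraries with featureCounts, and young libraries (rRNA-depleted, stranded, paired-end) with featureCounts on the reverse strand. The deposited fold changes and p-values of the authors' own comparisons (DESeq2 1.18 and 1.38.3) were not used, and 3 count columns of repeated name were left out. One young WT pituitary column carries no clear number and is called replicate u.

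Genotypes were compared within tissue and cohort with edgeR 4.0.16 (R 4.3.3, limma 3.58.1): TMM scaling, filterByExpr, quasi-likelihood test, Benjamini-Hochberg adjustment over all genes tested, threshold 0.05. DESeq2 1.42.0, other scaling, no filter, all 3 genotypes in one fit, a replicate block and leaving out each library were alternatives. Interaction terms tested differences between tissues and cohorts. Scripts were tested on simulated counts. Within groups, 99 pairs of libraries were checked for duplicates, and none fell within sampling noise (chi-square per degree of freedom 1.87 or more). The 9 genes, the 4 axis lists and the 12 marker lists were chosen with earlier results of these data known. Named were the 9 genes, at most 4 genes of smallest p per list and comparison, genes called in both cohorts, and the 5 genes most like Gh. Gene models came from GENCODE M21 and promoters and microRNAs from RefSeq (GRCm38.p6). Older ovary, counted with another tool, entered no test between tissues. Some genes counted in the list of lineage transcription factors are not reported here by name.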

Additional observations from a re-analysis of the deposited data

Results flagged for a closer look

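By the rule used, chance marks about 1 in 20 groups if values are normally distributed, which low counts need not be. In 8 of 82 groups of 4 libraries a member had 1 library far from the others. In the older cohort these were Gh in hypothalamus Zeb1_200H replicate 4 (39.8 CPM, next 4.67), Gh in ovary WT replicate 1 (13.8 CPM, next 0.322), Sstr2 in ovary Zeb1_200H replicate 4 (1.72 CPM, next 0.764) and Sstr5 in hypothalamus WT replicate 2, the lowest (5.05 CPM, next 5.94). In the young cohort they were Ghsr in hypothalamus Zeb1_200M replicate 1 (23.0 CPM, next 13.1), Sstr1 in ovary Zeb1_200H replicate 4 (2.12 CPM, next 0.354), Sstr2 in ovary WT replicate 1 (1.56 CPM, next 0.406) and Sstr2 in ovary Zeb1_200M replicate 3 (1.94 CPM, next 0.383).

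The Zeb1_200M effect differed between older pituitary and older hypothalamus, by edgeR's interaction test, for Gh (log2 -4.95, adjusted p = 4.66e-07), Ghsr (1.40, adjusted p = 0.00743) and Sstr2 (1.28, adjusted p = 0.00966).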

How the results depend on the processing

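Over 2114 combinations of a single member and an alternative, 1939 kept their direction and side of the threshold, 18 lost and 28 gained a call, no called value changed sign, and 129 values without a call changed sign. The pituitary rises of Ghsr in the young cohort (log2 0.77 to 1.07 in Zeb1_200M, 0.92 to 1.21 in Zeb1_200H) and of Sstr2 in the older (1.05 to 1.52 and 1.17 to 1.63) and the fall of Pou1f1 in young Zeb1_200M (-0.46 to -0.24) were called in every alternative run. Counts of members called moved as follows. In young Zeb1_200H pituitary, 1 became 2 with DESeq2, 3 with total counts, 5 without a filter and 2 with all 3 genotypes in one fit, and was 1 to 2 when a library was left out. In older Zeb1_200M pituitary, 1 became 2 with total counts and 3 without a filter, and was 1 to 2 when a library was left out. In older Zeb1_200H, 3 became 1 to 2 when a library was left out (1 without Zeb1_200H replicate 4 or WT replicate 2). In older Zeb1_200M hypothalamus, 1 became 2 without a filter and 0 with all 3 genotypes in one fit. Without a filter, 0 became 1 in young Zeb1_200M against Zeb1_200H pituitary, in young and older Zeb1_200H hypothalamus, in older Zeb1_200M against Zeb1_200H hypothalamus and in the young difference between tissues. When a library was left out, young Zeb1_200H hypothalamus and the young difference between tissues ranged from 0 to 1. Axis genes called ranged from 3 to 12 in young Zeb1_200H (10 reported) and from 10 to 21 in older Zeb1_200M (17) when a library was left out, and were 10 with total counts in older Zeb1_200H (6). The causes were not tested.

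Replicate numbers did not pair the libraries in any of 22 comparisons. With the replicate block, 2 members rather than 1 were called in older Zeb1_200M pituitary, with Neurod4 added (log2 -0.63, adjusted p = 0.00729), and Sstr2 lost its call between young pituitary and ovary (0.99, adjusted p = 0.222), and no other call of a member changed. DESeq2 called more genes than edgeR in older Zeb1_200M hypothalamus (634 against 1), older Zeb1_200M ovary (1321 against 482) and young Zeb1_200M ovary (886 against 497). Sstr2 rests on 8 to 48 counts a library in older pituitary, and Gh on 0 to 6 in older WT hypothalamus, so fold changes there are imprecise.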
